A study of Mus musculus with 144 samples.

Results

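The 8 genes described here serve fatty acid oxidation in the liver and its control: *Ppara*, *Cpt1a*, *Cpt2*, *Ehhadh*, *Acadm*, *Acadl*, *Pdk4* and *Fgf21*. They were taken by symbol from the 55359 genes of the count tables, whatever their values, and all 8 were found in every library. The libraries are poly(A) RNA-Seq of primary mouse hepatocytes, liver parenchymal cells freshly isolated by collagenase perfusion and plated on type I collagen. The cells came from male mice aged 28 days and were given 10 nM TCDD (2,3,7,8-tetrachlorodibenzo-p-dioxin), the prototype ligand of the aryl hydrocarbon receptor (AHR), or its solvent DMSO, and were harvested at 2, 4 and 8 h, at 12 and 24 h and then once a day from 48 to 120 h, which gave 36 groups of 4 libraries. One set is labelled wild-type (strain C57BL/6NCrl), here "labelled WT". The other is labelled DRE-null (strain Pkm-delta-DRE), a whole-body deletion of a dioxin response element (DRE) inside an intron of *Pkm*, here "labelled PkmΔDRE". The culture is described alike for both sets. Cells were seeded in 5% fetal bovine serum, and unattached cells were removed after 3 h. A serum-free medium followed, with insulin, transferrin and selenium, ascorbic acid at 0.3 mM and the synthetic glucocorticoid dexamethasone at 100 nM. The labels give 2 different plate formats, and number no animals or isolations. Libraries are named below by group and by a replicate number from 1 to 4 that follows their accession order and is not used to pair them. The study asked how hepatocytes respond to TCDD when *Pkm* cannot be induced through that element.

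Fatty acids are burned in liver mitochondria once they have been carried across the membrane as carnitine esters, and the longest chains are first shortened in peroxisomes. PPARα, the nuclear receptor encoded by *Ppara*, senses fatty acids in the fasting liver, pairs with RXR and binds direct repeats of a hexamer in front of genes for carnitine transport, mitochondrial and peroxisomal oxidation and ketone body synthesis. AHR bound to TCDD acts instead through the DRE core, GCGTG, and suppressed fatty acid oxidation and fat accumulation are known features of TCDD exposure in mouse liver.

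The windows of 250 bases before the RefSeq transcription start were read for all 8 genes in the mouse assembly GRCm38.p6, an older build than the GRCm39 to which the reads were aligned. The DRE core, searched as GCGTG on both strands, stood in 6 of the 8 windows, against 28.2% of 32851 mouse promoter windows of this length. *Cpt2* had 2 copies, *Ppara*, *Ehhadh*, *Acadm*, *Pdk4* and *Fgf21* had 1 each, and the letters were not in the windows of *Cpt1a* and *Acadl*. The nuclear receptor hexamer AGGTCA, on either strand, stood in *Cpt1a* (bases -94 to -89) and *Acadm* (-249 to -244), against 14% of windows. The direct repeat of that hexamer with 1 base between, in its exact letters, was in none of the 8 and in 11 windows of the genome, or 0.0335%. A match describes letters and not a bound site. The 4 sequences below are those of the 3 genes that passed the test under TCDD and of *Fgf21*, the gene with the largest fitted fold. Each runs 5′ to 3′ along the gene's own strand, all 4 genes lie on the minus strand, and capitals mark the DRE core, written GCGTG on the gene's strand or CACGC where it lies on the other. Those of *Cpt2* (chr4:107923611-107923839) and *Pdk4* (chr6:5496310-5496528) stop at the first annotated exon base, and those of *Ehhadh* (chr16:21787835-21788084) and *Fgf21* (chr7:45615491-45615740) run to the base before the start.
Cpt2: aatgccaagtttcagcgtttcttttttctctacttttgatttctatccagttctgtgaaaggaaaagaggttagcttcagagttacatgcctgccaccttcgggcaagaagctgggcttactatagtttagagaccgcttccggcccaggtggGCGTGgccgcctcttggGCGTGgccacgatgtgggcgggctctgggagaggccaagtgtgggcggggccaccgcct
Ehhadh: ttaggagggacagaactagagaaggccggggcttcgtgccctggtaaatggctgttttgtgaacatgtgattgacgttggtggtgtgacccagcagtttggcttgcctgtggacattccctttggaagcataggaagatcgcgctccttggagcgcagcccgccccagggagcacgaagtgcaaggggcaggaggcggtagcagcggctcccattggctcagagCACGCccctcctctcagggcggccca
Pdk4: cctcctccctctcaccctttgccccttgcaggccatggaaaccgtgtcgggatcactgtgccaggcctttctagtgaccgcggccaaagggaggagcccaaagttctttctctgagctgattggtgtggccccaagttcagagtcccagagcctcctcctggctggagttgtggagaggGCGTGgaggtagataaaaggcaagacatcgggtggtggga
Fgf21: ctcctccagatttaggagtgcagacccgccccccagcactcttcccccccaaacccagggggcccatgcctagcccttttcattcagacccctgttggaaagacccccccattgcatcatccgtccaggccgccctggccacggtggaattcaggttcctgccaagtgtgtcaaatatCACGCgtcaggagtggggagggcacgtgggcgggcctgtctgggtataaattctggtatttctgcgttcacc

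Libraries held 13588848 to 30719161 counts on genes (median 18011825). Some libraries went against their labels, and no sample was moved for it. *Pkm*, the targeted gene, rose under TCDD in the libraries labelled PkmΔDRE (log2 fold change 1.24 at 8 h and 1.68 at 12 h) and not in those labelled WT (-0.49 and 0.17), so that every genotype below is only a label. Over the 8199 genes above a cut-off on mean level, 3 libraries matched another hour by 2 or more time points. All 3 were DMSO libraries labelled PkmΔDRE. Replicate 4 of 4 h matched 96 h best (r = 0.84, against -0.76 with its own hour), replicate 4 of 96 h matched 4 h best (r = 0.87, against -0.77), and replicate 1 of 72 h matched 120 h (r = 0.93, against 0.81). *Cyp1a1*, the classical AHR target, stood, under the WT label, at 3285 CPM (the standard depth-scaled count of RNA-Seq, taken over counts on genes) in replicate 1 of DMSO at 48 h and 1717 CPM in replicate 3 of DMSO at 96 h, and at only 29.2 CPM in replicate 4 of TCDD at 72 h, whose companion libraries had 3386 CPM or more. At 2 h, where its level with TCDD was still low, replicate 4 of TCDD under the WT label had 1.15 CPM, within the 0.823 to 5.39 CPM of DMSO, and its companions 6.24 CPM or more. No member was called at that hour, and the library is not among those left out below. The 3 libraries at 48, 72 and 96 h and both replicates 4 that matched another hour are called the 5 doubted libraries, and results that rest on them are given with and without them. All 8 hepatocyte markers were present in every library, from *Alb* down to *Serpina1c*, with a summed level of 3026 to 209673 CPM. The summed markers of other cell types were present at lower levels, with 35.998 to 486 CPM for endothelial, 6.93 to 373 CPM for cholangiocyte, 2.22 to 318 CPM for stellate and fibroblast, and 14.6 to 317 CPM for Kupffer and macrophage markers, and the lymphoid and pan-leukocyte sum reached at most 2.31 CPM.

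Values are CPM with scaling by the trimmed mean of M-values (TMM), which sets libraries to a common level through the bulk of their genes, and a gene is said to rise or fall only where the edgeR quasi-likelihood test gave a Benjamini-Hochberg adjusted p under 0.05 over all genes and a fold of at least 1.5. The labels name no separate animals or cultures, so these p-values measure the spread between libraries, which may be technical. Per kb of exon, *Acadm*, the medium-chain acyl-CoA dehydrogenase of mitochondrial oxidation, had the highest level at 2 h in DMSO (156.6 CPM per kb labelled WT, 125.7 labelled PkmΔDRE). It was followed by the peroxisomal bifunctional enzyme gene *Ehhadh* (104.7 and 98.8), the long-chain dehydrogenase *Acadl* (84.4 and 82.5), and the carnitine palmitoyltransferases *Cpt1a* (67.1 and 75.1) and *Cpt2* (56.9 and 71.4). *Ppara* (11.4 and 9.88) and *Pdk4* (11.3 and 8.64) were far lower, and *Fgf21* was near 1 (1.14 and 1.11). At 120 h the order had changed, with *Acadl* (62.5 and 54.5) and *Cpt1a* (58.3 and 58.9) on top, *Acadm* at 50.1 and 42.7, and *Ehhadh*, second at 2 h, down to 5.18 and 3.89. At 2 h under the WT label the neighbours *Ehhadh* and *Acadl*, *Acadl* and *Cpt1a*, *Cpt1a* and *Cpt2*, and *Ppara* and *Pdk4* differed by less than the larger SD of the pair. At 120 h so did the neighbours among *Acadl*, *Cpt1a* and *Acadm*, and among *Pdk4*, *Ehhadh* and *Ppara*.

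**Figure D1:**
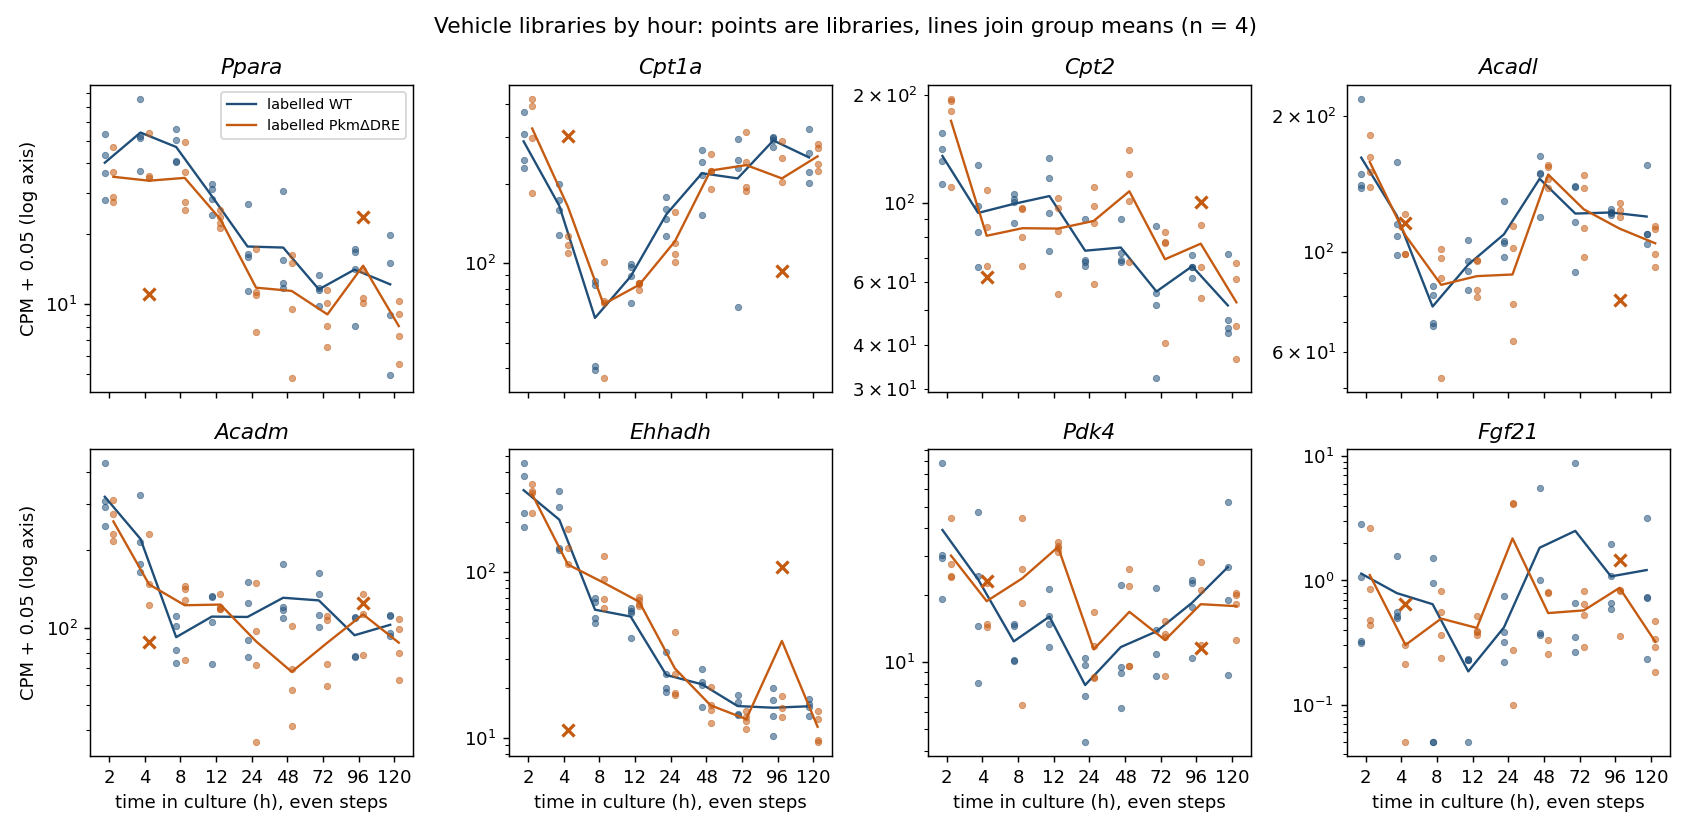
Level of each gene in DMSO (vehicle) at the 9 time points on even steps, as CPM + 0.05 on a log axis, with 1 point per library and a line through the group means for each label, and crosses for replicates 4 of 4 h and 96 h labelled PkmΔDRE, which the means include. *Ehhadh* ran from 312 CPM at 2 h to 15.4 CPM at 120 h under the WT label, and *Cpt1a* dipped to 62.1 CPM at 8 h and was back at 252 CPM at 120 h. With counts scaled by the raw gene total instead, *Cpt1a*, *Acadl* and *Pdk4* were above their 2 h level at 120 h.

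More tests passed for time in culture than for TCDD. Against 2 h in DMSO, 39 of 64 tests of the 8 genes at 8 later time points passed in the libraries labelled WT and 40 of 64 in those labelled PkmΔDRE, all of them lower. Over the same hours 18.2% of the tests of all genes passed as lower under the WT label and 13.3% under the PkmΔDRE label. Without the 5 doubted libraries the counts were 37 and 42, again all lower. Among all genes tested, 57.9% were called at 120 h under the WT label (33.4% higher, 24.5% lower) and 49.4% under the PkmΔDRE label (26.8% higher, 22.7% lower). The groups of 33.2% of genes did not overlap between 2 h and 8 h under the WT label, of 42.8% between 2 h and 24 h, and of 59.6% between 2 h and 120 h. The hepatocyte markers fell with them: 8 of 8 were lower at 120 h under both labels, with median log2 fold changes of -4.23 and -4.51, and their sum went from 122598 to 163783 CPM at 2 h to 3026 to 16860 CPM at 120 h under the WT label. In bulk RNA fewer hepatocytes and less RNA per hepatocyte cannot be told apart. The stellate and fibroblast marker sum moved the other way, from 5.79 to 13.4 CPM at 2 h to 25.7 to 205 CPM at 120 h under the WT label, and so did the cholangiocyte sum, from 34.2 to 132.5 CPM to 140.3 to 193 CPM. The Kupffer and macrophage sum went from 138.6 to 218 CPM to 15.8 to 60.2 CPM and the endothelial sum from 295 to 475 CPM to 35.998 to 89.1 CPM. The part of these shifts in the results was not tested.

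The direction of many changes depended on the scaling. The sign of 31 of the members' changes differed between TMM and the raw gene total, 10 of them called with TMM, and at 120 h these were *Cpt1a*, *Acadl* and *Pdk4* under both labels and *Fgf21* under the WT label. TMM sets the bulk of the genes level, so that the median of all genes moved by 0.21 on the log2 scale from 2 to 120 h under the WT label and by 0.24 under the PkmΔDRE label. Scaled by the raw gene total instead, the same medians were 1.43 and 1.57. In that fit, chosen after seeing the data, 17 tests of the 8 genes passed as lower and 4 as higher under the WT label, and 12 as lower and 1 as higher under the PkmΔDRE label. *Ehhadh* fell at 120 h with either scaling under both labels (raw total log2 -3.30 and -3.50), and so did *Ppara* under the PkmΔDRE label (-0.94), while its change under the WT label was -0.66 (adjusted p = 0.0716). *Cpt2* was at -0.36 and -0.53 and *Acadm* at -0.61 and -0.39, of which only *Acadm* under the WT label passed (adjusted p = 0.0317). *Cpt1a* (0.86, adjusted p = 0.015) and *Acadl* (0.61, adjusted p = 0.00699) rose at 120 h under the WT label, and their values under the PkmΔDRE label, 0.82 and 0.56, did not pass. *Pdk4* was at 0.50 and 0.42 and did not pass either, nor did *Fgf21* under the WT label (1.04, from -0.09 with TMM). All 8 genes lay below the median of all genes at 120 h under both labels. The scaling moves all genes of a library alike, so its choice could hardly alter this. The values that follow use TMM, and so are changes relative to the bulk of the transcriptome.

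*Ppara* was held for the first hours and then fell. Under the WT label the 4 DMSO libraries of 2 h had 27.9, 36.5, 43.2 and 53.1 CPM, those of 8 h had 40.5, 41.04, 50.4 and 55.9 CPM, and those of 120 h had 4.93, 8.93, 14.9 and 19.6 CPM. The 2 h and 8 h libraries overlapped, and every 120 h library lay below every 2 h library. The log2 change was 0.24 (SE 0.31) at 8 h and -1.90 (SE 0.32, adjusted p = 6.04e-06) at 120 h, and it first passed at 24 h (-1.31, SE 0.31, adjusted p = 0.000829). Under the PkmΔDRE label the same gene was at 34.6 ± 11.1 CPM (SD, n = 4) at 8 h and 8.00 ± 2.06 CPM at 120 h, a log2 change of -2.32 (SE 0.40, adjusted p = 3.38e-05) from the 34.97 ± 9.08 CPM of 2 h.

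*Cpt1a*, which makes the acylcarnitine on the outer mitochondrial membrane and sets the pace of mitochondrial oxidation, fell early and came back. Its DMSO libraries labelled WT went from 229, 247, 309 and 374 CPM at 2 h to 39.4, 40.9, 82.6 and 85.6 CPM at 8 h, and to 201, 222, 263 and 322 CPM at 120 h. The 8 h group lay wholly below the 2 h group, and the 120 h group overlapped it. The log2 change was -2.21 (SE 0.29, adjusted p = 3.31e-07) at 8 h and -0.37 (SE 0.28, adjusted p = 0.249) at 120 h. The libraries labelled PkmΔDRE gave -2.26 (SE 0.33, adjusted p = 2.79e-05) and -0.55 (SE 0.31, adjusted p = 0.142). At 4 h under that label replicate 4 held 303 CPM against 109.01, 117.2 and 126.7 CPM in the other 3, and the log2 change was -1.08 (adjusted p = 0.0476) with it and -1.48 (adjusted p = 0.00569) without the doubted libraries. That call was kept in only 12 of 42 alternatives, mostly leaving out single libraries of the fit.

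*Cpt2*, the inner-membrane partner that releases the acyl group again, first passed at 24 h under the WT label and at 4 h under the PkmΔDRE label, and stayed down. Under the WT label it had 112.3, 130.5, 140.8 and 156 CPM at 2 h and 43.02, 44.4, 46.8 and 71.6 CPM at 120 h, with no overlap between the groups. The log2 change was -1.57 (SE 0.24, adjusted p = 1.19e-06) under the WT label and -1.89 (SE 0.30, adjusted p = 1.30e-05) under the PkmΔDRE label. At 8 h it had fallen under the PkmΔDRE label (-1.04, SE 0.29, adjusted p = 0.0179), a call kept in 36 of 42 alternatives and lost with the raw gene total and without replicate 1, 3 or 4 of 2 h or replicate 1 or 2 of 8 h, while the value under the WT label was -0.44 (SE 0.23, adjusted p = 0.138).

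The mitochondrial dehydrogenases *Acadm* and *Acadl* had most of their drop by 8 h under the WT label. *Acadm* went from 248, 293, 310 and 432 CPM at 2 h to 72.8, 81.9, 101.3 and 111.1 CPM at 8 h and was still at 92.6, 94.9, 110.5 and 111.9 CPM at 120 h. Both later groups lay below the whole 2 h group, with log2 changes of -1.79 (SE 0.22, adjusted p = 1.22e-07) and -1.80 (SE 0.22, adjusted p = 2.22e-08). Under the PkmΔDRE label the changes were -1.10 (SE 0.34, adjusted p = 0.0312) and -1.74 (SE 0.34, adjusted p = 0.00016). The first was lost without replicate 4 of 8 h (-0.91, adjusted p = 0.114). *Acadl* went from 138.8, 140.9, 149 and 218 CPM to 68.5, 69.6, 80.5 and 84.2 CPM at 8 h, and back to 103.97, 109.6, 109.8 and 156 CPM at 120 h, where 1 library reached into the 2 h range. Its log2 change was -1.08 (SE 0.16, adjusted p = 1.84e-06) at 8 h and -0.60 (SE 0.15, adjusted p = 0.00133) at 120 h, and under the PkmΔDRE label it was -0.93 (SE 0.21) and -0.79 (SE 0.21). Without replicate 3 of 2 h, the library at 218 CPM, the 120 h change under the WT label was -0.45, under the fold required.

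*Ehhadh*, the hydratase and dehydrogenase of peroxisomal beta-oxidation and a classical PPARα target, fell the most of the 8. Its libraries labelled WT had 188, 228, 379 and 453 CPM at 2 h, 49.3, 52.5, 65.7 and 69.5 CPM at 8 h, and 13.4, 15.3, 15.9 and 17.2 CPM at 120 h. The groups of these 3 hours did not overlap at any point. The log2 change at 120 h was -4.49 (SE 0.27, adjusted p = 2.97e-15), or 22.5-fold lower, under the WT label and -4.86 (SE 0.63, adjusted p = 1.49e-06), or 29.1-fold lower, under the PkmΔDRE label. At 96 h under the PkmΔDRE label, replicate 4 held 107.3 CPM against 13.2, 15.1 and 17.8 CPM in the other 3, and the log2 change was -3.12 with it and -4.53 without the doubted libraries.

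*Pdk4*, the kinase that switches off pyruvate dehydrogenase when fat is burned, had its lowest DMSO level at 24 h. Under the WT label the 2 h libraries had 19.3, 29.3, 30.2 and 78.2 CPM, those of 24 h 4.32, 7.01, 9.69 and 10.4 CPM, and those of 120 h 8.76, 18.96, 26.7 and 52.4 CPM. The 24 h group lay below the 2 h group and the 120 h group overlapped it. The log2 change at 24 h was -2.41 (SE 0.49, adjusted p = 0.000129) under the WT label and -1.52 (SE 0.40, adjusted p = 0.00502) under the PkmΔDRE label. At 120 h it was -0.70 (SE 0.46, adjusted p = 0.19) and -0.95 (SE 0.40, adjusted p = 0.048), and the latter call was kept in 26 of 42 alternatives and lost with RLE scaling, with no filter on low counts, with the raw gene total and without single libraries. The 78.2 CPM library, replicate 3 of 2 h, decided the calls at 8, 12 and 96 h under the WT label, which were -1.11, -0.84 and -0.73 without it and did not pass.

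*Fgf21*, the hepatokine that PPARα switches on in fasting, passed the test at no hour in DMSO. It was near the limit of these libraries, with 3 to 35 counts each at 2 h under the WT label (0.267, 0.274, 1.02 and 2.78 CPM) and 0.185, 0.673, 0.689 and 3.10 CPM at 120 h. Its log2 changes ran from -3.06 to 0.96 under the WT label and from -2.10 to 0.86 under the PkmΔDRE label. The change at 120 h under the PkmΔDRE label, -2.10 (SE 0.91), had an adjusted p of 0.0545, and 0.0457 without the doubted libraries.

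Most other genes of the pathway fell as well. Of 61 genes in 9 lists around these members, 60 were tested at 120 h under each label. Of these, 45 fell and 10 rose under the WT label, and 43 fell and 5 rose under the PkmΔDRE label (45 and 10, and 44 and 6, without the 5 doubted libraries). Of all genes tested, 24.5% were lower and 33.4% higher under the WT label, and 22.7% and 26.8% under the PkmΔDRE label. All 15 genes of the mitochondrial beta-oxidation list, which holds *Acadm* and *Acadl*, fell under both labels (medians -1.73 and -1.88), as did all 4 of ketogenesis (-3.62 and -4.04). The steepest losses under the WT label were those of the fatty acid hydroxylase gene *Cyp4a14* (from 164 to 0.0358 CPM), the fatty acid binding protein *Fabp1* (from 1934 to 0.600 CPM), *Cyp4a10* (from 224 to 0.220 CPM) and the bile acid and fatty acid CoA ligase *Slc27a5* (from 1757 to 6.48 CPM). These counts too depended on the scaling. By the raw gene total 21 of the 60 fell and 14 rose under the WT label, and 28 fell and 13 rose under the PkmΔDRE label, beside 9.75% and 8.78% of all genes lower and 63.1% and 60.4% higher. Ketogenesis kept its 4 of 4 lower under both labels (medians -2.41 and -2.68) and mitochondrial beta-oxidation had 6 and 7 of 15 lower and 1 and 0 higher. Of the hepatocyte markers 7 of 8 were lower in that fit under each label (medians -3.05 and -3.15), and of the stellate and fibroblast markers 6 of 7 were higher.

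**Figure D2:**
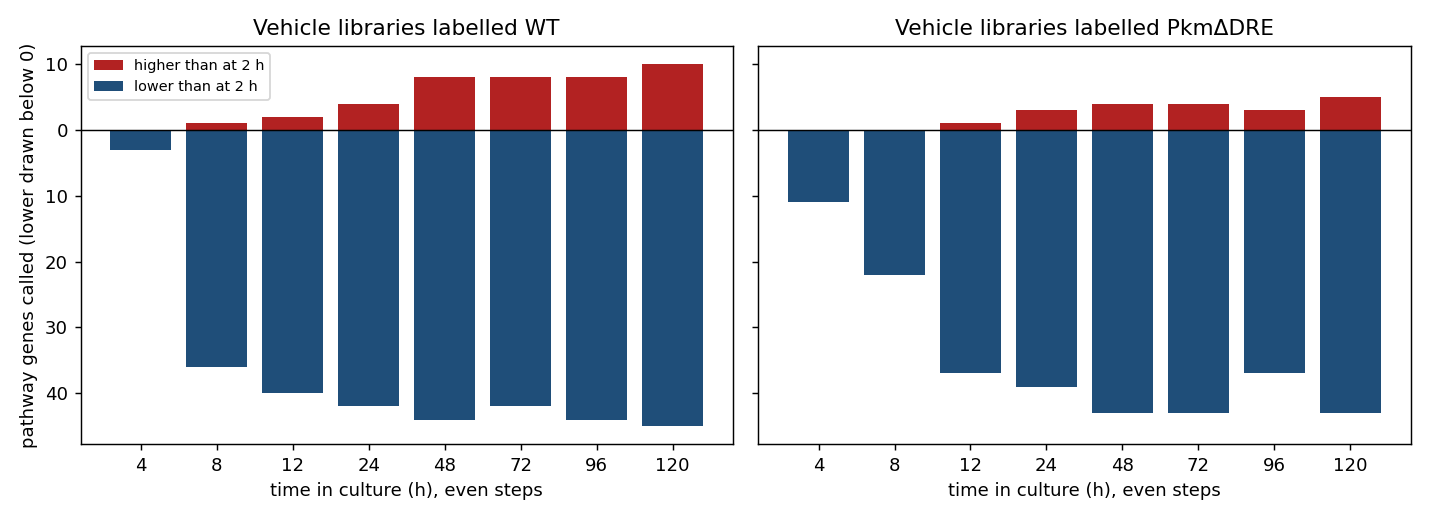
Number of pathway genes other than the 8 members called lower (bars drawn below 0) and higher (bars above 0) than at 2 h in DMSO (vehicle), by hour on even steps and by label, with TMM scaling. At 120 h 45 of 60 genes were lower under the WT label and 43 of 60 under the PkmΔDRE label, counts that were 21 and 28 with scaling by the raw gene total. Of all genes tested, 24.5% and 22.7% were lower at that hour with TMM.

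Few tests of TCDD passed for the 8 genes. On simulated counts for 8 h under the WT label the test recovered 54.5% of 2-fold and 97.7% of 4-fold changes. Only genes above a cut-off on mean count were changed there, so these rates do not hold for *Fgf21*. In the libraries labelled WT, 5 of 68 tests passed, at 8 h and at 96 h only, beside 5.98% of the tests of all genes over the 9 hours. In those labelled PkmΔDRE 0 of 68 passed in edgeR, beside 0.281% of the tests of all genes, and DESeq2 called 2. Of the 68, 10 had an unadjusted p under 0.05, as had 1.29% (24 h) to 14.2% (2 h) of all genes at each hour. *Ppara* itself passed at no hour under either label, with log2 fold changes between -0.29 and 0.28 under the WT label and between -0.47 and 0.31 under the PkmΔDRE label. *Cpt1a*, *Acadm*, *Acadl* and *Fgf21* did not pass at any hour under either label.

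**Figure D3:**
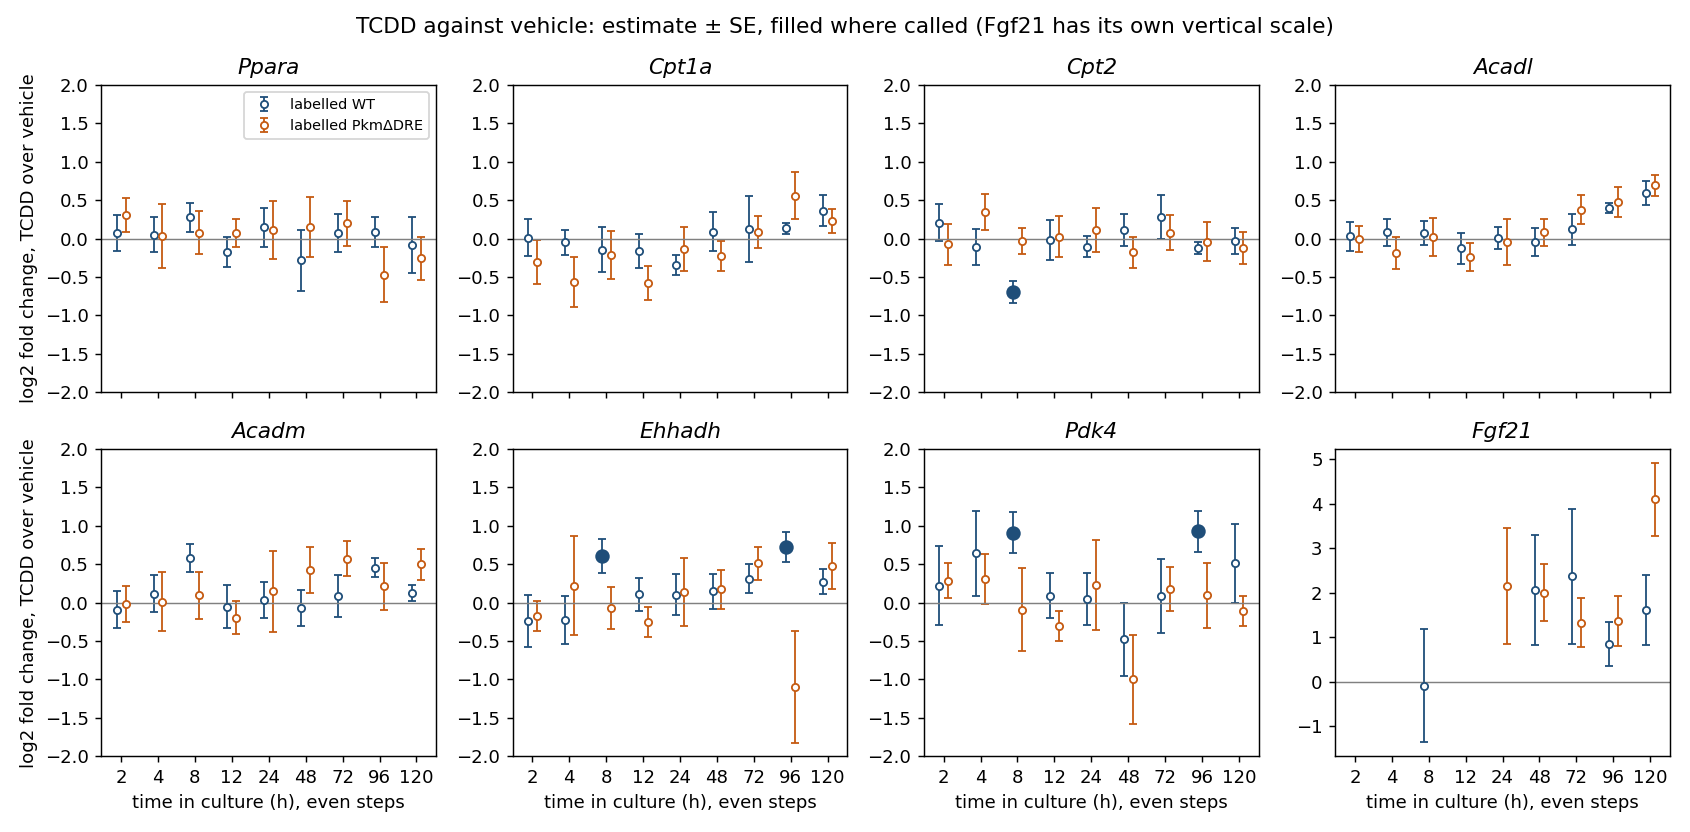
Log2 fold change of TCDD against DMSO (vehicle) for each gene, hour and label, with bars of 1 SE, filled where the test passed and with a wider vertical scale for *Fgf21*. Under the WT label *Cpt2* (-0.69), *Pdk4* (0.91) and *Ehhadh* (0.60) passed at 8 h and *Ehhadh* (0.72) and *Pdk4* (0.93) at 96 h. *Fgf21* is drawn only at hours at which it passed the filter on low counts, which a gene this low can do through 1 group alone.

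At 8 h under the WT label, *Cpt2* was lower with TCDD and *Pdk4* and *Ehhadh* were higher. This was an hour at which 37.4% of all genes tested were called, 23.8% higher and 13.6% lower, and at which the groups of 41.3% did not overlap, so 3 of 8 members called is close to the share of all genes. *Cpt2* had 87.6, 100.4, 102.4 and 105.9 CPM in DMSO and 53.2, 58.4, 63.2 and 75.7 CPM with TCDD. Every TCDD library lay below every DMSO library, and the log2 fold change was -0.69 (SE 0.14, adjusted p = 0.00281). *Pdk4* had 10.0, 10.2, 14.5 and 14.7 CPM in DMSO and 17.3, 17.6, 23.1 and 37.0 CPM with TCDD. Its groups also stood apart, with a log2 fold change of 0.91 (SE 0.27, adjusted p = 0.0152). *Ehhadh* had 49.3, 52.5, 65.7 and 69.5 CPM in DMSO and 68.5, 70.9, 85.2 and 143.8 CPM with TCDD. Its groups overlapped by 1 library, and the log2 fold change was 0.60 (SE 0.22, adjusted p = 0.0419). *Acadm* had an adjusted p of 0.0202 and a log2 fold change of 0.58, just under the fold required.

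The 8 h libraries labelled WT also differed in other measures. Read pairs counted on no gene made up 25.7%, 29.2%, 29.6% and 48.0% of those with TCDD, the last being replicate 1 and the highest share of all libraries, against 25.1% to 30.1% in DMSO. The hepatocyte marker sum was 64616 to 70837 CPM with TCDD against 73845 to 88606 CPM in DMSO, and the Kupffer and macrophage sum 57.5 to 104.04 CPM against 127.5 to 174 CPM. The part of the markers in the 3 calls was not tested. Without replicate 1 of TCDD all 3 passed again (*Cpt2* -0.70, *Pdk4* 1.03, *Ehhadh* 0.72). With each library's trend on the GC content of the genes removed, which moved the median of all genes by 0.13, *Cpt2* was at -0.32 (adjusted p = 0.108), *Pdk4* at 0.39 (adjusted p = 0.232) and *Ehhadh* at 0.31 (adjusted p = 0.23), and none passed. By the raw gene total *Cpt2* was at -0.55 (adjusted p = 0.027), under the fold required, *Ehhadh* at 0.78 (adjusted p = 0.0621) and *Pdk4* at 1.10 (adjusted p = 0.0242). Without replicate 3 of TCDD, the highest library of both *Pdk4* and *Ehhadh*, these were at 0.61 (adjusted p = 0.0545) and 0.31 (adjusted p = 0.14), and *Ehhadh* also lost its call without replicate 4 of TCDD or replicate 1, 2 or 3 of DMSO.

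At 96 h under the WT label, *Ehhadh* and *Pdk4* were again higher with TCDD, at an hour when 15.1% of all genes were called (10.1% higher, 5.00% lower) and the groups of 33.8% did not overlap. *Ehhadh* had 10.2, 13.5, 16.9 and 19.8 CPM in DMSO and 16.95, 24.4, 26.7 and 27.6 CPM with TCDD, and *Pdk4* had 10.4, 17.6, 22.6 and 23.4 CPM in DMSO and 19.3, 37.9, 38.1 and 39.5 CPM with TCDD. In both genes the lowest TCDD library, replicate 1, lay within the DMSO range and the other 3 lay above it. That library also had 63.3% of its stranded counts on one strand, against 50.3% to 51.5% in the others, and leaving it out lost no call. The log2 fold changes were 0.72 (SE 0.20, adjusted p = 0.0168) and 0.93 (SE 0.27, adjusted p = 0.0244). Without replicate 3 of DMSO, the doubted library, they were 0.87 (adjusted p = 0.00938) and 1.05 (adjusted p = 0.0236), with 14.7% of all genes called. *Acadl* stood apart at this hour, with 120.5, 121.7, 122.3 and 124.5 CPM in DMSO and 142.8, 155, 159 and 162 CPM with TCDD, at a log2 fold change of 0.40 (SE 0.07, adjusted p = 0.00219) that is under the fold required. *Cpt2* stood apart in the other direction, with 61.6 to 71.4 CPM in DMSO and 55.6 to 60.7 CPM with TCDD, and did not pass. *Acadm* was at 0.46 (adjusted p = 0.0181). The cholangiocyte marker sum was 129.9 to 148.2 CPM with TCDD against 259 to 301 CPM in DMSO and the endothelial sum 44.02 to 62.5 CPM against 71.5 to 81.2 CPM, and their part in the calls was not tested. *Pdk4* was at 0.74 (adjusted p = 0.0979) with the GC trend removed and at 1.24 (adjusted p = 0.0513) with the no-gene share of each library in the fit, and did not pass in either, while *Ehhadh* passed in both. The calls of *Ehhadh* and *Pdk4* were lost when single libraries were left out, *Ehhadh* without replicate 2 of DMSO or 2 or 4 of TCDD (log2 0.58, 0.67 and 0.62) and *Pdk4* without replicate 1 of DMSO or 2, 3 or 4 of TCDD (0.91, 0.85, 0.87 and 0.84).

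At 120 h *Acadl* was higher with TCDD under both labels by a similar amount and passed under neither. The libraries labelled WT had 103.97, 109.6, 109.8 and 156 CPM in DMSO and 162, 164, 168 and 227 CPM with TCDD (log2 0.59, SE 0.16, adjusted p = 0.0953), at an hour with 1.46% of genes called and 10.8% not overlapping. Those labelled PkmΔDRE had 92.7, 98.999, 112.2 and 114.07 CPM in DMSO and 156, 161, 175 and 196 CPM with TCDD (log2 0.69, SE 0.14, adjusted p = 0.0641), with 0.633% of genes called and 5.20% not overlapping. Under each label every TCDD library lay above every DMSO library. Leaving out replicate 3 of DMSO, the library at 156 CPM, gave a call under the WT label (log2 0.74, adjusted p = 0.0325). That library was the highest of its group, so leaving it out raises the fold in any case. Replicate 3 of TCDD, at 227 CPM, was the highest of its own group and stayed in. DESeq2 called *Acadl* under the PkmΔDRE label (adjusted p = 0.00275), and so did edgeR by the raw gene total (0.73, adjusted p = 0.045). The cholangiocyte marker sum at this hour was 105.7 to 111.5 CPM with TCDD and 140.3 to 193 CPM in DMSO under the WT label, and its part was not tested. Under the PkmΔDRE label the share of unmapped reads was 2.20% to 2.48% with TCDD and 4.06% to 6.68% in DMSO.

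*Fgf21* was the gene with the largest TCDD fold under the PkmΔDRE label, and no edgeR test of it passed. It entered 5 of 9 comparisons there, from 24 h on, with log2 fold changes above 0, from 1.33 to 4.10. A gene this low can pass the filter on low counts through 1 group alone, so their shared sign was not taken as a result. At 120 h it had 3 to 12 counts in DMSO and 25 to 268 with TCDD, so it entered through the TCDD group. Its groups standing apart at that hour was therefore not taken as a result either. At 2, 4, 8 and 12 h, which the filter dropped, the means were 0.951, 0.934, 0.461 and 3.46 CPM with TCDD. In DMSO they were 1.06, 0.253, 0.444 and 0.365 CPM. At 120 h the DMSO libraries had 0.135, 0.240, 0.291 and 0.422 CPM and the TCDD libraries 0.628, 2.49, 5.61 and 10.7 CPM. Every TCDD library lay above every DMSO library, and the log2 fold change was 4.10 (SE 0.82, adjusted p = 0.0641). DESeq2 called it (adjusted p = 3.06e-06), as did edgeR without replicate 4 of TCDD, the lowest of its group (log2 4.47, adjusted p = 0.015). Leaving out the lowest library of the higher group raises the fold in any case, so that call is no support. With the unmapped share of each library as a covariate *Fgf21* was at 2.60 (adjusted p = 0.638). At 48, 72 and 96 h the log2 values were 2.00, 1.33 and 1.36, and 1.74 at 96 h without the doubted replicate 4 of DMSO. At 12 h the gene was below the filter on low counts, so it was not tested, although 3 of 4 TCDD libraries were at 3.88, 4.19 and 5.52 CPM against 0.315 to 0.471 CPM in DMSO, the remaining TCDD library, replicate 2, being at 0.262 CPM. With no filter on low counts the log2 fold change was 3.12 (adjusted p = 0.0748).

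Under the WT label single libraries weighed heavily on *Fgf21* at 48 and 72 h. At 72 h the TCDD libraries had 0.732, 0.872, 4.14 and 43.9 CPM and the DMSO libraries 0.216, 0.302, 0.608 and 8.69 CPM, and at 48 h they had 0.964, 1.53, 2.01 and 23.7 CPM with TCDD and 0.314, 0.331, 0.964 and 5.52 CPM in DMSO. One library held most of each group's total, and the groups overlapped. At 72 h this was replicate 3 in both groups, which also had the lowest *Cpt1a* of its group (68.3 CPM against 229 to 296 CPM in DMSO, and 103.3 CPM against 253 to 283 CPM with TCDD) and the lowest *Cpt2* (32.3 and 46.1 CPM). At 120 h the TCDD libraries had 0.783, 3.86, 4.70 and 4.70 CPM and the DMSO libraries 0.185, 0.673, 0.689 and 3.10 CPM, groups that overlapped. The log2 fold changes across the 5 hours tested ran from -0.09 to 2.37, 4 of them above 0, the smallest adjusted p being 0.212. The 5.52 CPM library of DMSO at 48 h is doubted for its *Cyp1a1*, and without it the 48 h value was 3.77 (adjusted p = 0.9998).

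**Figure D4:**
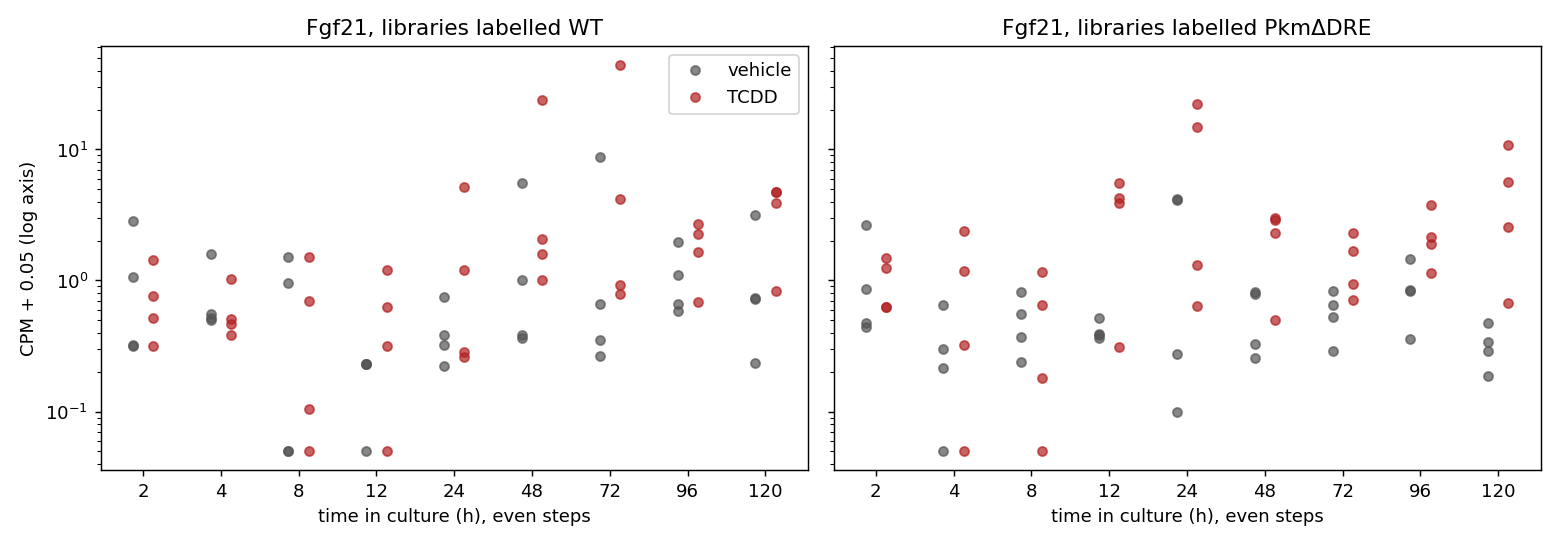
*Fgf21* in every library by hour on even steps, as CPM + 0.05 on a log axis, DMSO (vehicle) beside TCDD, separately for each label. At 120 h under the PkmΔDRE label the TCDD libraries, 0.628 to 10.7 CPM, all lie above the DMSO libraries, and at 48 h and 72 h under the WT label 1 TCDD library, at 23.7 and 43.9 CPM, lies far above the other 3.

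The remaining values under the PkmΔDRE label at an unadjusted p under 0.05 were *Acadl* at 96 h (log2 0.48, and 0.33 without the doubted library), *Acadm* at 72 h (0.57, and a call at 0.72, adjusted p = 0.0401, without replicate 1 of DMSO, the library that matched 120 h) and 120 h (0.50), *Ehhadh* at 72 h (0.51) and *Cpt1a* at 12 h (-0.58). The shares of all genes called at these hours were, in the order 12, 48, 72 and 96 h, 0.0240%, 0.404%, 1.13% and 0.0793%, the last being 2.25% without the doubted library. An unadjusted p under 0.05 was reached by far more genes: 9.53%, 6.62%, 10.7%, 7.20% and 7.44% at 12, 48, 72, 96 and 120 h. *Cpt1a* at 12 h had 79.5, 83.3, 84.4 and 84.4 CPM in DMSO and 37.0, 51.3, 64.9 and 74.4 CPM with TCDD, groups that did not overlap, as in 3.99% of genes at that hour.

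Among the other pathway genes, a few rose late with TCDD under both labels. At 96 h under the WT label 8 of 58 tested rose and 2 fell (11 and 2 without the doubted library), close to the 10.1% of all genes higher and 5.00% lower at that hour, with the largest changes in *Fabp1* (log2 3.76, SE 0.50, from 0.584 to 7.80 CPM), the peroxisomal thiolase *Acaa1b* (2.01, SE 0.30, from 20.2 to 77.9 CPM), the cytosolic acyl-CoA thioesterase *Acot1* (1.49, SE 0.12, from 46.8 to 126.2 CPM) and the pantetheinase *Vnn1* (1.09, SE 0.12). *Acaa1b* (1.91) and *Acot1* (1.62) rose again at 120 h, as 2 of 58. Under the PkmΔDRE label *Acaa1b* rose at 3 time points, by 1.68 (SE 0.30) at 48 h, by 2.10 (SE 0.28) at 72 h and by 2.21 (SE 0.27) at 120 h, *Acot1* at 72 h (1.44, SE 0.26) and 120 h (1.7999, SE 0.31), *Fabp1* at 72 h (4.09, SE 0.77, from 0.293 to 5.09 CPM) and the mitochondrial thioesterase *Acot2* at 120 h (1.26, SE 0.16). These were all the pathway genes called there, 1, 3 and 3 of 58 or 59 tested, with 0 at 96 h and 4 there without the doubted library. All had adjusted p-values between 5.98e-05 and 0.0492. Under the PkmΔDRE label the late TCDD libraries also had a lower share of unmapped reads. It was 2.88% to 3.74% with TCDD and 4.57% to 6.87% in DMSO at 48 h, and 2.20% to 2.48% and 4.06% to 6.68% at 120 h. At 72 h the shares overlapped (2.43% to 3.16% and 3.06% to 7.74%). The part of this difference in the calls of these pathway genes was not tested.

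At 8 h under the WT label the other pathway genes were divided, 7 higher and 15 lower of 59, where 23.8% of all genes were higher and 13.6% lower. By the raw gene total 10 were higher and 6 lower, beside 24.5% and 6.14% of all genes, so which direction held more genes depended on the scaling. The GC trend, whose removal lost the member calls at this hour, was not removed for these genes. The largest changes with groups that did not overlap were in the electron transfer flavoprotein subunit *Etfb* (-1.52, SE 0.40), the nuclear receptor corepressor *Ncor1* (1.40, SE 0.18), the peroxisomal carnitine octanoyltransferase *Crot* (1.35, SE 0.21) and the peroxisomal transporter *Abcd3* (1.24, SE 0.24). At 24 h under that label none of the 8 members passed, beside 0.373% of all genes.

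No difference in the response to TCDD between the labels passed the test for any of the 8 genes. The test is weak. On simulated counts for 8 h, in genes above a cut-off on mean count, it recovered 17.8% of 2-fold and 75.8% of 4-fold differences. Absence of a call is therefore no sign of equal responses. In edgeR 0 of 72 tests passed, beside 0.00160% of the tests of all genes, and 2 had an unadjusted p under 0.05. DESeq2 called 0 of 70. *Cpt2* at 8 h differed by 0.54 on the log2 scale (labelled PkmΔDRE minus labelled WT), and *Ehhadh* at 96 h by -1.82, a value that rests on the doubted library of that hour. Of all genes, 0.00% were called at 7 of the 9 hours and 0.00715% and 0.00695% at 48 h and 72 h. The 9 values of *Fgf21* ran from -1.06 to 2.49.

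**Figure D5:**
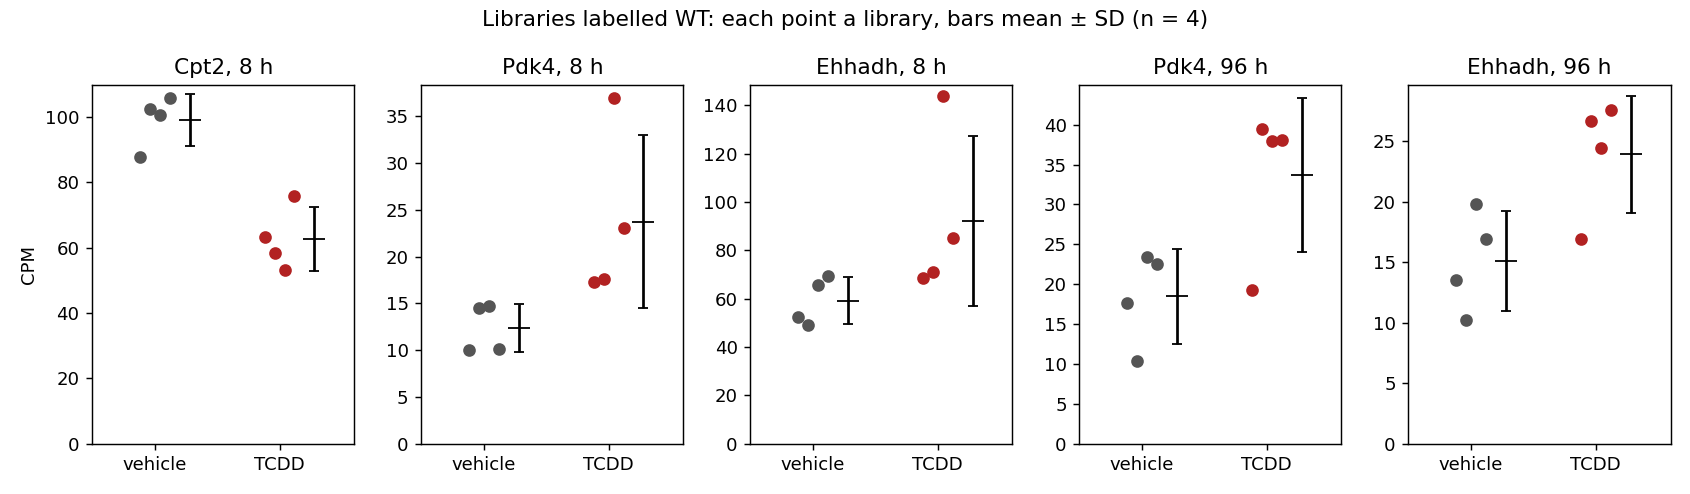
CPM per library in the comparisons of TCDD with DMSO in which a member passed, all under the WT label, with bars of the group mean ± SD (n = 4) and DMSO marked as vehicle. *Cpt2* and *Pdk4* at 8 h under the WT label show groups that do not overlap, and *Ehhadh* at 8 h and both genes at 96 h overlap by 1 library.

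In DMSO the labels differed in 1 of 67 tests, beside 0.407% of the tests of all genes. *Pdk4* at 12 h had 11.7, 14.8, 16.1 and 21.4 CPM under the WT label and 31.2, 32.7, 33.1 and 34.5 CPM under the PkmΔDRE label. Every library labelled PkmΔDRE lay above every library labelled WT, and the log2 difference was 1.07 (SE 0.21, adjusted p = 0.0239), at an hour with 3.68% of genes called and 15.3% not overlapping. It passed in 11 of 16 alternatives and was lost without replicate 2 of the WT label or replicate 1, 3 or 4 of the PkmΔDRE label (adjusted p from 0.0687 to 0.103) and in 1 fit of all libraries (adjusted p = 0.258). At the same hour 1 of 59 other pathway genes was higher and 3 were lower under the PkmΔDRE label, among them the fibroblast growth factor receptor *Fgfr4* (-1.16, SE 0.21), the liver transcription factor *Creb3l3* (-0.83, SE 0.18) and the lipid droplet coat gene *Plin2* (-0.78, SE 0.15).

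Across the 36 group means, *Ehhadh* and *Ppara* varied together (Pearson r = 0.91), as did *Cpt1a* and *Acadl* (r = 0.91), while *Ehhadh* and *Cpt1a* did not (r = -0.25). These points share their time course and their libraries, so the values are a description only. Among 11498 genes the most like *Ppara* was the oxysterol hydroxylase *Cyp7b1* (r = 0.96), the most like *Ehhadh* the mitochondrial ornithine carrier *Slc25a15* (0.99), the most like *Acadm* the bile phospholipid transporter *Abcb4* (0.95), and the most like *Cpt1a* the haem synthesis enzyme *Fech* (0.94). *Cpt2* was most like *Foxred1* (0.93), *Acadl* most like *Trmt2b* (0.92) and *Pdk4* most like *Xlr3a* (0.84). *Fgf21* was most like *Gstm2* (0.79), *Gsta2* (0.78) and *Areg* (0.76), the first a pair of glutathione transferases and the last an EGF receptor ligand.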

How the data were processed

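Gene counts were analysed as deposited: the authors' tables give raw, unstranded STAR counts per gene (whole read pairs, not normalized), 1 table per library. The submitters' processing notes name FastQC 0.11.3, Trimmomatic 0.39, STAR 2.7, DESeq2 and the build GRCm39. Because the counts used ignore strand, reads of overlapping genes on opposite strands cannot be told apart. The lines on no gene, 16.8% to 48.0% of a library (median 24.2%), stayed out of library sizes and tests. Groups follow the genotype and treatment labels. Counts were tested in edgeR 4.0.16 (R 4.3.3, limma 3.58.1) with TMM, filterByExpr at 10 counts (15 in total), robust quasi-likelihood fits and Benjamini-Hochberg adjustment over all genes tested. A call needs an adjusted p under 0.05 and a fold of at least 1.5. TCDD was compared with DMSO within label and hour (18 comparisons), and the response (9) and the DMSO level (9) between labels at each hour. Time in culture was tested in 1 fit per label of the DMSO libraries against 2 h (16 contrasts). DESeq2 1.42.0, other scalings, filters, covariates and left-out libraries were alternatives, of which the raw gene total in the fit and the omission of the 5 doubted libraries were chosen after seeing the data. The edgeR tests were first tested on simulated data. Of 2-fold changes they recovered 54.5% for TCDD (WT label, 8 h), 17.8% for the response difference (8 h), 34% for the label difference (12 h) and 60.6% for time (WT label, 120 h). Of 4-fold changes they recovered 97.7%, 75.8%, 93% and 89.6%. Only genes above a cut-off on mean count were changed in these simulations, so the rates do not hold for *Fgf21*. Of the other genes of the lists, those with values are at most the 4 largest called changes whose groups do not overlap. The 8 genes and all lists were chosen with earlier results of these data known. Libraries held 13588848 to 30719161 counts on genes, and this depth limits low genes such as *Fgf21*.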

Additional observations from a re-analysis of the deposited data

Results flagged for a closer look

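In 32 of the 288 groups of 4 libraries (8 genes in 36 groups) 1 library stood far from the other 3, by Dixon's test at its 95% critical value, which chance alone would flag in about 1 of 20 groups. These were 26 libraries, and 13 of the 32 groups were DMSO groups. Replicate 3 of TCDD at 120 h under the WT label stood apart in 4 genes, with *Cpt1a* at 466 CPM (the other 3 at 276 to 277 CPM), *Acadl* at 227 CPM (162 to 168 CPM), *Pdk4* at 65.9 CPM (27.8 to 29.8 CPM) and *Acadm* at 104.4 CPM (112.8 to 114.3 CPM). Replicate 3 of TCDD at 2 h under that label stood apart in 3, with *Ehhadh* at 456 CPM (199 to 207 CPM), *Pdk4* at 99.01 CPM (24.9 to 30.6 CPM) and *Acadl* at 216 CPM (144.004 to 151 CPM), and replicate 4 of the same group had *Cpt2* at 233 CPM (123.5 to 139.5 CPM). Replicate 3 of TCDD at 72 h under the WT label had *Cpt1a* at 103.3 CPM (253 to 283 CPM) and *Fgf21* at 43.9 CPM (0.732 to 4.14 CPM).

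The doubted libraries appear 3 times. They had *Cpt1a* at 303 CPM in DMSO at 4 h (109.01 to 126.7 CPM) and *Ehhadh* at 107.3 CPM in DMSO at 96 h (13.2 to 17.8 CPM) under the PkmΔDRE label, and *Fgf21* at 5.52 CPM in DMSO at 48 h (0.314 to 0.964 CPM) under the WT label. Replicate 1 of DMSO at 72 h under the PkmΔDRE label, whose profile was nearest to 120 h, had *Cpt2* at 40.3 CPM (77.2 to 82.4 CPM). Replicate 1 of TCDD at 96 h under the WT label, the library with the uneven strand share, had *Pdk4* at 19.3 CPM (37.9 to 39.5 CPM).

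The other DMSO libraries that stood apart under the WT label had *Acadl* at 218 CPM at 2 h (138.8 to 149 CPM) and 156 CPM at 120 h (103.97 to 109.8 CPM), *Cpt2* at 89.6 CPM at 24 h (66.6 to 68.8 CPM) and 71.6 CPM at 120 h (43.02 to 46.8 CPM), and *Fgf21* at 1.54 CPM at 4 h (0.453 to 0.508 CPM), 0 CPM at 12 h (0.180 to 0.182 CPM) and 8.69 CPM at 72 h (0.216 to 0.608 CPM). Those under the PkmΔDRE label had *Acadm* at 134.97 CPM at 12 h (117.8 to 119.6 CPM) and *Fgf21* at 0.471 CPM at 12 h (0.315 to 0.340 CPM). Among TCDD libraries labelled WT, *Cpt1a* was at 89.2 CPM at 8 h (44.3 to 48.7 CPM), *Cpt2* at 71.6 CPM at 4 h (94.9 to 97.1 CPM) and *Fgf21* at 23.7 CPM at 48 h (0.964 to 2.01 CPM). Among those labelled PkmΔDRE, *Ppara* was at 4.30 CPM at 120 h (7.33 to 7.94 CPM), *Acadm* at 234 CPM at 4 h (113.5 to 124.7 CPM), *Ehhadh* at 23.6 CPM at 72 h (17.01 to 17.7 CPM), and *Pdk4* at 30.3 CPM at 2 h (36.3 to 36.6 CPM) and 32.4 CPM at 24 h (5.67 to 8.87 CPM).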

How the results depend on the processing

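No paired analysis was possible because the labels give no replicate number, animal or isolation that would tie a DMSO library to a TCDD library. The 5 calls under TCDD in the libraries labelled WT became 4 with RLE scaling or the raw gene total, 7 with no filter on low counts, 6 with either the no-gene share or the unmapped share as a covariate, 5 in DESeq2 or without the 5 doubted libraries, 8 with no fold required, 1 with the GC trend removed, 1 in 1 fit of all libraries and 0 by a posterior probability of at least 0.8. The 0 calls under the PkmΔDRE label became 1 with no filter on low counts, 1 with the raw gene total, 1 with the unmapped share as a covariate and 2 in DESeq2. Leaving out 1 library at a time gave 3 to 6 calls under the WT label and 0 to 1 under the PkmΔDRE label, 0 for the difference in response, 0 to 2 for the label difference in DMSO, and 33 to 40 and 32 to 44 for time in culture. The 39 and 40 calls for time in culture became 21 and 13 with the raw gene total and lay between 34 and 44 in the other alternatives. That scaling turned the sign of 31 changes with time, of which 10 had been called: *Acadl* to 0.088, 0.48 and 0.61 on the log2 scale at 24, 96 and 120 h under the WT label and to 0.013, 0.40 and 0.56 under the PkmΔDRE label, *Cpt1a* to 0.41 at 72 h (WT label) and 0.34 at 96 h (PkmΔDRE label), *Cpt2* to 0.14 at 48 h and *Pdk4* to 0.42 at 120 h (both PkmΔDRE label). It moved 88 of the 288 group means of CPM by more than 1 SD. The difference in response had 0 calls in every other alternative run. The label difference in DMSO had 1 call in each, *Pdk4* at 12 h, except in 1 fit of all libraries, where the call was *Ehhadh* at 96 h (1.36, adjusted p = 0.01955) in place of *Pdk4* (adjusted p = 0.258). The cause of each of these changes was not tested, apart from the scaling, which moves all genes of a library alike. Depth limits *Fgf21* more than the other genes, since it had only 3 to 35 counts in the DMSO libraries of 2 h labelled WT.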
